A study of Mus musculus with 10 samples.

Results

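The genes followed here encode proteins of the fibrous sheath and the outer dense fibres, the cytoskeletal structures that surround the axoneme in the mouse sperm tail. The 10 genes were Akap3, Akap4, Odf1, Odf2, Fsip1, Fsip2, Ropn1, Ropn1l, Spa17 and Cabyr. They were chosen by name, and for each gene the expected counts and FPKM of all its RefSeq mRNA transcripts were summed. Of the 10, 9 were listed above 0 in at least 1 sample, out of 16082 RefSeq mRNA genes and 69572 genes of all classes in the series. Fsip2 was listed in none of the 10 samples, and whether it was at 0 or not among the authors' reference transcripts cannot be told.

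The fibrous sheath encloses the principal piece of the tail and is built mainly from the A-kinase anchoring proteins AKAP4 and AKAP3, which tether protein kinase A and glycolytic enzymes close to the axoneme. ROPN1, ROPN1L, SPA17 and CABYR carry a domain like that of the regulatory subunit of protein kinase A, and they bind the same anchoring proteins. The outer dense fibres run along the midpiece and principal piece, with ODF1 and ODF2 among their major proteins. Genes of this kind are transcribed in spermatids in the testis, while the nucleus of mature sperm is condensed and largely silent in transcription, and sperm RNA is thought to be carried over mainly from earlier stages.

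RNA was sequenced from sperm and testes of C57BL/6 mice (C57BL/6J in the study's methods), labelled as 3 to 5 months old. Control mice received saline and the cadmium group received a single intraperitoneal injection of CdCl2 at 3 mg/kg, with 50 mice in each arm, and both were killed on day 35. The groups were control sperm (n = 4 pools), control testes (n = 2), cadmium sperm (n = 2) and cadmium testes (n = 2). Sperm were taken from the cauda epididymis and vas deferens and treated with a lysis buffer against somatic cells, and each control sample pools several mice. By the study's methods the control testes came from the mice that also gave the sperm, and the methods give another age and number of mice than the labels and do not mention the saline injection. Control sperm pool 1 was left out of the tests, as the study did, and its values are given beside the others. The p-values measure only the spread between these samples.

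The expected counts, which estimate how many fragments came from a transcript, ran from 366455 to 1058017 in total for a control sperm pool, were 1155491 and 1254477 for cadmium sperm, and ran from 2606086 to 2866856 for testes of either arm. Counts were also scaled to the sum of their sample (CPM), and 3 counts stood for 2.84 to 8.19 CPM in a control sperm pool and 1.05 to 1.15 in a testes sample. Spermatid and sperm markers (Prm1, Prm2, Tnp1, Tnp2, Smcp) summed to between 233 and 465 FPKM in control sperm, 405 and 443 in cadmium sperm, and 461 and 567 in testes. Of 5 markers of earlier germ cells, none was listed in control sperm, 1 (Sycp3, at 3.18 FPKM) in 1 cadmium sperm sample, and 4 or 5 in each testes sample. Of 5 Sertoli cell markers, at most 2 were listed in a sperm sample, with at most 1.45 FPKM summed. In sperm, Leydig cell markers summed to at most 27.5 FPKM and peritubular muscle markers to at most 33.6, mainly from Star and Tagln. These maxima, in control pools 3 and 1, were above every testes sample (15.6 to 22.2 FPKM for Leydig and 11.2 to 15.9 for peritubular muscle markers). Of the other Leydig markers, Hsd3b1 was at 1.31 FPKM in cadmium sperm sample 2, Cyp17a1 at 0.52 in control pool 2, and Insl3 and Cyp11a1 at 0 in sperm, where Cyp11a1 was also at 0 in 3 of 4 testes samples. Of 6 epididymal epithelium markers, at most 1 was listed in a control sperm pool (up to 6.20 FPKM summed) and 4 in each cadmium sperm sample (5.72 and 7.12 FPKM summed), with Crisp1 and Cdh1 in both of these and in no control pool, Krt8 at 6.20 FPKM in control pool 3, above its level in both cadmium sperm samples, and Lcn5 and Lcn8 at 0 in all sperm samples. Of 4 leukocyte markers, at most 1 was listed in a control sperm pool (up to 4.84 FPKM summed), and 3 and 2 in the cadmium sperm samples (1.70 to 4.0 FPKM summed). The part of these cells in the results was not tested. In bulk samples, fewer cells of a type and less RNA per cell cannot be told apart.

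In GRCm38, Akap3 lies at chr6:126853098-126874308 and Akap4 at chrX:7067515-7078609, both on the plus strand, Ropn1 at chr16:34649832-34678610 on the plus strand, and Ropn1l at chr15:31441210-31453689 and Spa17 at chr9:37603294-37613916, both on the minus strand. Odf1 lies at chr15:38219203-38226735 and Odf2 at chr2:29889014-29931746. Fsip1 and Fsip2 are also on chromosome 2.

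The promoters of Akap3 and Akap4 are shown because these scaffold genes had levels of 2.03 to 5.11 FPKM in every testes sample and were each at 0 in most sperm samples. The 250 bases before the RefSeq start of each gene (GRCm38.p6, plus strand) are given 5′ to 3′, and the capitals mark a run of 20 bases found in both. They span chr6:126852848-126853097 for Akap3 and chrX:7067265-7067514 for Akap4.
Akap3: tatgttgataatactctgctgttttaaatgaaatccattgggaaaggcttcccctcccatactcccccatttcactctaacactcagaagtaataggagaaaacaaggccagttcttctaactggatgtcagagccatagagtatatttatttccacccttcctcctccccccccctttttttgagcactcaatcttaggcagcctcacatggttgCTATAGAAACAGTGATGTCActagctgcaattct
Akap4: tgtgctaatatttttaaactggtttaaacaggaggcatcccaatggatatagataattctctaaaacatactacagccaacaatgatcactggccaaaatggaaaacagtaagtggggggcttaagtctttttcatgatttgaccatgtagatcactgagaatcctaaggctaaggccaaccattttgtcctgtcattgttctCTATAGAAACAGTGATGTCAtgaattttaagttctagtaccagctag
The shared run covered bases 34 to 15 before the start of Akap3 and bases 47 to 28 before that of Akap4. The run was taken as the longest that these 2 windows share, so both hold it by construction. How often 2 windows share a run of this length was not tested. Among 32817 RefSeq mouse promoter windows of the same length, searched on both strands, no other held this run. Its last 8 bases, TGATGTCA, a stretch picked after the run was seen, were found in 2.93% of the windows. The cyclic AMP response element TGACGTCA was found in 1.55% of windows and its first 5 bases TGACG, which the full element contains, in 17.7%, with neither present in the Akap3, Akap4 or Ropn1l windows. The longest run that the Ropn1l window shared with those of Akap3 and Akap4 was 9 bases. Windows of the other genes were not examined singly. These matches describe letters in the sequence and no binding was measured.

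In testes, 8 or 9 of the 10 genes were listed in each sample, against 1 to 4 in each control sperm pool and 3 and 4 in the cadmium sperm samples. Odf2, which also encodes a protein of centrioles, was the only one of them listed in all 10 samples, and it was the highest of the 10 in every sample. The level of Odf2 was 36.3 and 58.0 FPKM in testes of controls, 27.6 and 45.7 in those of the cadmium arm, 12.2, 32.5, 16.1 and 23.8 in control sperm pools 1 to 4, and 35.4 and 25.5 in cadmium sperm. Ranked among the RefSeq mRNA genes listed in a sample, Odf2 was within the top 1.88% in each testes sample, at the top 2.68% and 2.82% in cadmium sperm, and at the top 2.17%, 7.36%, 26.9% and 27.8% in control sperm pools 2, 4, 3 and 1, of which the last pair listed the fewest genes. The other genes followed in a looser order. In control testes the next levels were 5.96 and 24.0 FPKM for Spa17, 3.60 and 12.0 for Cabyr, 7.26 and 3.57 for Ropn1l, 2.35 and 4.56 for Akap3, 2.84 and 3.96 for Akap4, and 2.12 and 2.38 for Odf1. Neighbours in this order from Spa17 down to Akap4 overlapped in range, whereas Odf2 lay above all of them and Odf1 just below Akap4. Ropn1 (0.87 and 1.45 FPKM) and Fsip1 (0 and 0.24 FPKM) were the lowest.

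**Figure D1:**
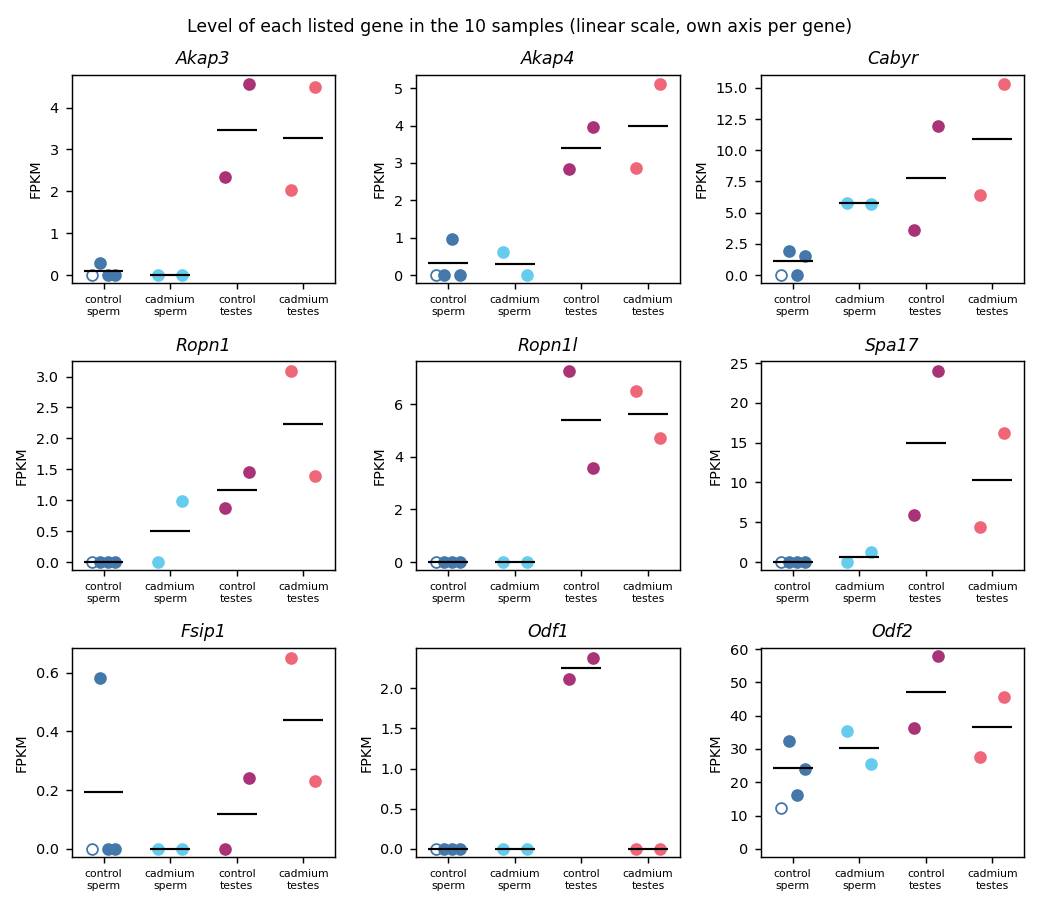
FPKM of each of the 9 listed genes in the 10 samples, on a linear axis of its own per gene. Points are samples, the open circle is control sperm pool 1, and the line is the group mean without that pool. Odf2 was the only gene above 0 in all samples, and Odf1 was above 0 in control testes alone.

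Control sperm were compared with control testes to set the mature cells beside the tissue in which they form. Akap4, the main structural protein of the fibrous sheath, had 23 and 29 counts in control testes (2.84 and 3.96 FPKM) and 1 count in pool 3 alone of the 4 control sperm pools (0.97 FPKM). Akap3 had 21 and 37 counts in testes and 1 count in pool 2 alone (0.30 FPKM). Both genes were thus at 0 in 3 of 4 control sperm pools, and the testes and sperm values did not overlap. Over the 3 pools used in the tests, the pooled CPM of Akap3 were 20.5-fold lower than in testes (1 count against 58, exact 95% interval 3.53 to 823) and those of Akap4 18.4-fold lower (1 against 52, interval 3.15 to 739), where the intervals cover counting error only. With the spread between samples taken into account, neither passed the test of edgeR with Benjamini-Hochberg adjustment over the 3 pools (Akap3 log2 fold change -4.48, SE 1.87, adjusted p = 0.0744, and Akap4 -4.09, SE 1.88, adjusted p = 0.108).

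The genes of the small proteins that dock on the anchoring scaffold, Ropn1l and Spa17, were at 0 in all 4 control sperm pools. Ropn1l, a relative of ropporin, had 18 and 8 counts in control testes, and Spa17, first known as a sperm autoantigen, had 11 and 40. Against a floor of 3 counts over the 3 pools, Ropn1l was at least 3.06-fold and Spa17 at least 6.00-fold lower in sperm. Odf1, a major protein of the outer dense fibres, had 6.43 and 6.55 counts in control testes and 0 in every control sperm pool. It was 1.53-fold lower at the same floor (interval from 1.08-fold). These 3 genes were called lower in control sperm (edgeR adjusted p = 0.0477 for each), where a call needs both an adjusted p below 0.05 and over 2-fold difference. The fitted log2 fold changes of -5.83, -7.03 and -4.95 for Ropn1l, Spa17 and Odf1 rest on groups at 0 and are no bounds.

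Of the 10 genes, 7 passed the filter (2 or more samples of the comparison at 1 FPKM or above), and 3 of the 7 were called lower and none higher. Among the 4910 RefSeq mRNA genes tested, 20% were called lower, and of all 24432 genes 17.6% were called lower and 21.8% in either direction. In a still larger share of RefSeq mRNA genes, 45.7%, testes exceeded control sperm with no overlap in FPKM. Odf2 and Cabyr also met the filter in control sperm, while the other tested genes of the 10 passed it through their testes samples alone. A gene absent from sperm could thus differ in 1 direction only. The median log2 fold change was -1.24 over all genes tested. With all 4 control sperm pools, or in 1 fit over the 4 groups, edgeR called 4 of the genes, Akap3 among them in both. The 3 calls did not hold when any of control sperm pools 2 or 4 or either testes sample was left out (0 genes called, where a lone testes sample is assumed to vary like the sperm pools), and without pool 3 the genes called were Akap4 and Spa17. With no filter, or with counts thinned to equal depth, edgeR called none of the 10 (with no filter, 5 had an unadjusted p under 0.05), while DESeq2 called Spa17 alone and gave Odf1 and Ropn1l no adjusted p.

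Odf2 and Cabyr had the highest counts of the 10 genes in control sperm. Odf2 had 78, 13 and 27 counts in control sperm pools 2 to 4 and 236 and 338 in control testes. Its pooled CPM were 1.72-fold lower in sperm (interval 1.41 to 2.11 for counting error alone), and the edgeR log2 fold change was -1.18 (SE 0.757, adjusted p = 0.264), close to the median of all genes. Cabyr, a calcium-binding protein of the sheath that is phosphorylated during capacitation, had 3, 0 and 1 counts in these pools and 19 and 29 in testes, a pooled ratio of 4.24-fold lower (interval 1.55 to 16.2). Its log2 fold change of -2.40 did not pass the test (SE 1.60, edgeR adjusted p = 0.281). Ropn1, with 2 and 3 counts in testes and 0 in control sperm, and Fsip1, with 0 and 1 in testes and 1 in sperm pool 2, were under the filter, and a difference was not detectable at this depth.

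In the cadmium arm the same comparison of sperm with testes drew on deeper sperm libraries. Akap3 had 18 and 38 counts in cadmium testes and 0 in both sperm samples, 8.10-fold lower at the floor (interval from 6.37-fold). Akap4 had 23 and 39 counts in testes, and 2 and 0 in sperm, a pooled ratio of 13.4-fold lower (interval 3.57 to 114). Ropn1l had 16 and 11 counts in testes and 0 in both sperm samples, 3.90-fold lower at the floor (interval from 2.96-fold). Spa17 had 8 and 28 against 0 and 1, 15.6-fold lower (interval 2.63 to 634). All 4 genes were called lower in cadmium sperm, with edgeR adjusted p = 0.000318 for Akap3, 0.0047 for Akap4, 0.0123 for Ropn1l and 0.0196 for Spa17. Fitted log2 fold changes were -3.52 (SE 1.05) for Akap4 and -3.68 (SE 1.31) for Spa17.

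Of the 7 genes tested there, 4 were called lower and none higher, beside 18.9% of 5080 RefSeq mRNA genes and 15.4% of all 25780 genes called lower and 31.6% of all genes called in either direction. Testes and sperm did not overlap, with sperm lower, for 42.9% of RefSeq mRNA genes. The 4 genes passed the filter through their testes samples here too, so they could be called in 1 direction only. Without cadmium testes sample 2, which had more counts than sample 1 for Akap3, Akap4 and Spa17, none of the 4 was called, and with 1 sample of a group left its spread is assumed to be that of the other group. Leaving out any of the other samples kept 3 called, with Spa17 lost without cadmium sperm sample 1, Akap4 without sample 2 and Ropn1l without testes sample 1. DESeq2 called 1 of them, Akap3, and gave no adjusted p for Ropn1l, and Akap3 was also the only call after thinning to equal depth.

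Odf2 and Cabyr did not pass the test between cadmium sperm and cadmium testes. Odf2 had 94 and 73 counts in cadmium sperm (35.4 and 25.5 FPKM) and 180.1 and 280 in cadmium testes (27.6 and 45.7 FPKM), and the FPKM ranges overlapped. Its log2 fold change was -0.11 (SE 0.533, edgeR adjusted p = 0.901), and the pooled sperm to testes ratio was 0.837 (interval 0.697 to 1.00). Cabyr had 10 and 15 counts in sperm (5.81 and 5.71 FPKM) and 31 and 43 in testes (6.45 and 15.3 FPKM), with a log2 fold change of -0.16 (SE 0.654, adjusted p = 0.876) and a pooled ratio of 1.28-fold lower (interval 0.806 to 2.11). The sign for both genes turned when counts were thinned or cadmium testes sample 2 was left out, so no direction is given. Ropn1, ropporin, had 0 and 1 counts in sperm and 7 and 3 in testes (edgeR log2 fold change -1.70, SE 1.45, adjusted p = 0.388). The median over all genes tested was -0.30 with TMM scaling and -0.56 with library size alone, and with the latter Spa17 was no longer called (adjusted p = 0.063).

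**Figure D2:**
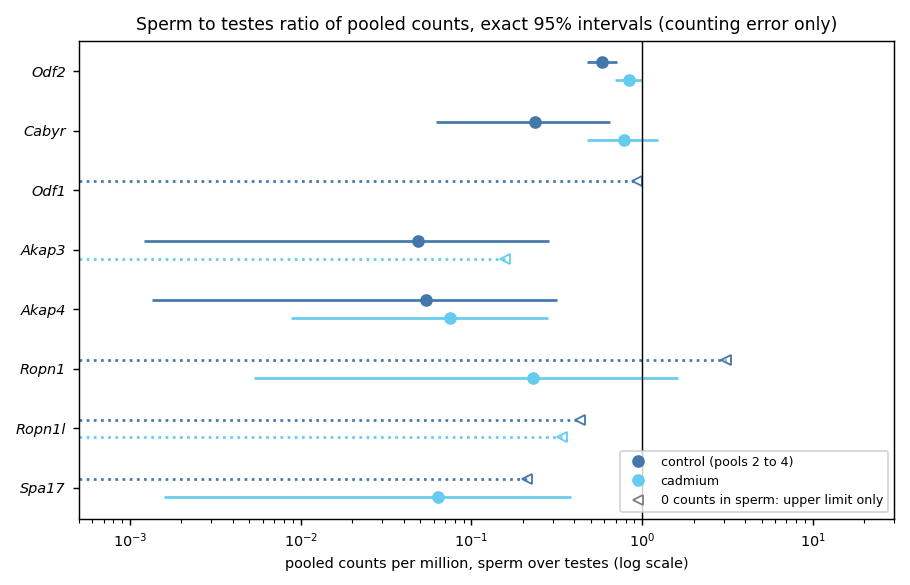
Sperm over testes ratio of pooled CPM for 8 genes, on a log axis, in control (pools 2 to 4) and cadmium samples. Bars are exact 95% intervals for counting error alone, open triangles with dotted lines are upper limits where sperm had 0 counts, and the vertical line marks equal levels. Odf2 and, in the cadmium arm, Cabyr lay nearest to equal levels, and the Akap3, Akap4, Ropn1l and Spa17 intervals lay below 1 in both arms.

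The cadmium effect was then examined within each tissue. In testes none of the 8 genes tested was called, beside 6 of 26724 genes of all classes (0.0225%, edgeR), and DESeq2 called 0 of the 8 too. Only Odf1 had an unadjusted p under 0.05. Odf1 had 6.43 and 6.55 counts in the control testes (2.12 and 2.38 FPKM) and was at 0 in both cadmium testes. This is 4.40-fold lower at the floor of 3 counts over the group (exact 95% interval from 3.09-fold for counting error). Odf1 had 1 listed transcript, yet its counts were fractional, so some fragments were divided with entries outside the gene. The Odf2 counts summed over its transcripts were also not whole in testes (574.29 over the control and 460.07 over the cadmium samples). Whether such division differed between samples was not tested. The groups did not overlap for Odf1, as was also the case, with cadmium lower, for 11.1% of RefSeq mRNA genes. Odf1 did not pass the adjustment over all genes (edgeR adjusted p = 1), and the lowest adjusted p over 13 alternative settings was 0.412.

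The other genes overlapped in FPKM between the testes of both arms. Akap3 had 21 and 37 counts in control testes and 18 and 38 under cadmium, and Akap4 had 23 and 29 against 23 and 39. The pooled cadmium to control ratio was 0.951 for Akap3 (interval 0.647 to 1.40), 1.17 for Akap4 (0.799 to 1.73), 1.02 for Ropn1l (0.575 to 1.82), 0.695 for Spa17 (0.441 to 1.09) and 1.97 for Ropn1 (0.614 to 7.35). For Odf2 and Cabyr the counting intervals excluded 1, with 0.790 for Odf2 (0.697 to 0.894) and 1.52 for Cabyr (1.04 to 2.23), yet the edgeR test, which includes the spread between samples, gave log2 fold changes of -0.28 (SE 0.528) and 0.65 (SE 0.583) with adjusted p = 1 for both. For Akap3, Akap4, Odf2, Ropn1l, Spa17 and Cabyr, the FPKM of the control samples differed from each other by more than the means of the arms did. This was not so for Ropn1 and Fsip1. In both arms, testes sample 2 was above sample 1 in FPKM for Akap3, Akap4, Odf2, Spa17 and Cabyr, with Spa17 at 24.0 FPKM against 5.96 in the controls and 16.2 against 4.38 under cadmium, while Ropn1l was lower in sample 2 of both arms. What set the samples apart was not tested. For Akap3, Akap4, Odf2, Ropn1l and Spa17 the sign of the change depended on which sample was left out.

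In sperm, 2 of the 10 genes passed the filter and neither was called by edgeR or DESeq2 or had an unadjusted p under 0.05, beside 17 of 20640 genes of all classes (0.0824%). Odf2 was at 35.4 and 25.5 FPKM in cadmium sperm and 32.5, 16.1 and 23.8 FPKM in control pools 2 to 4, overlapping ranges, with a log2 fold change of 0.34 (SE 0.729, edgeR adjusted p = 1). Cabyr was at 5.81 and 5.71 FPKM in cadmium sperm and at 1.90, 0 and 1.56 FPKM in control pools 2 to 4, and at 0 in pool 1. Its groups did not overlap, as was the case, with cadmium higher, for 21.1% of RefSeq mRNA genes, and the pooled ratio was 5.01-fold higher (25 counts against 4, interval 1.73 to 19.8). The edgeR log2 fold change of Cabyr was 2.42 (SE 2.02, adjusted p = 1), with a median of 0.43 over all genes tested. The cadmium samples were also the deeper libraries, at 1155491 and 1254477 counts against 366455 to 1058017, and after thinning to equal depth Cabyr stood at 3.10 on the log2 scale (adjusted p = 0.991). More leukocyte and epididymal epithelium markers were listed in the cadmium samples as well, and their part in the result was not tested. The remaining genes had 0 to 2 counts in any sperm sample, so that a cadmium effect on them was not detectable in sperm at this depth.

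The difference between the cadmium effects in sperm and in testes was tested in 1 fit of 9 samples, which shares its control samples with both comparisons. None of the 8 genes tested was called, beside 13 of 32814 genes (0.0396%), none had an unadjusted edgeR p under 0.05, and DESeq2 called none of them. The difference was 0.56 for Odf2 (SE 1.04, edgeR adjusted p = 1) and 1.70 for Cabyr (SE 1.62, adjusted p = 1) on the log2 scale, and for the other genes it rested on sperm groups at or near 0.

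The make-up of the set differed between sperm and testes. Odf2 took 94.0%, 92.9% and 96.4% of the counts on the 10 genes in control sperm pools 2 to 4, and all 12 counts in pool 1. Its share was 88.7% and 81.1% in cadmium sperm. In testes it was 70.2% and 68.8% for controls and 62.9% and 63.2% under cadmium. Control sperm, cadmium sperm and testes did not overlap in this share. It rests on 14 counts in control pool 3 and 12 in pool 1, so single counts weigh heavily there. The other 9 genes together had 0, 4.73, 2.73 and 1.97 CPM in control sperm pools 1 to 4 and 10.4 and 13.6 in cadmium sperm. In testes they had 35.0 and 58.9 CPM for controls and 37.3 and 60.2 under cadmium. In cadmium sperm nearly all of the counts besides Odf2 came from Cabyr, with 10 and 15 counts, while Akap4, Ropn1 and Spa17 together gave 2 counts in each sample.

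**Figure D3:**
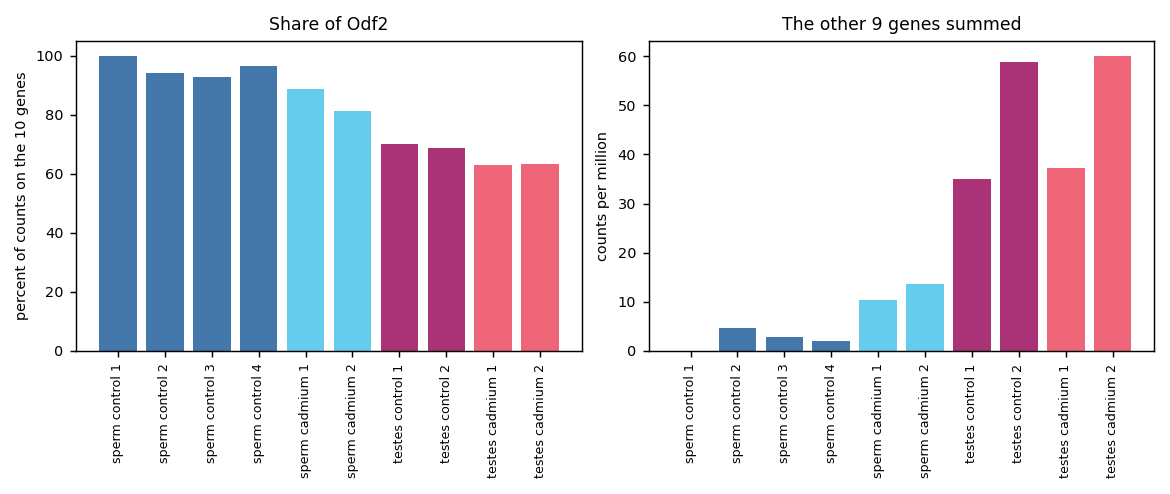
Left, percent of the counts on the 10 genes that fell on Odf2 in each sample. Right, CPM of the other 9 genes summed in each sample. Odf2 took 92.9% to 100% in control sperm, 81.1% and 88.7% in cadmium sperm and 62.9% to 70.2% in testes.

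The levels also depend on how counts were divided between the transcripts of a gene. Akap4 has 2 listed RefSeq transcripts, NM_001042542 of 2856 bases and NM_009651 of 2852 bases, which are nearly equal in length. In control testes sample 1 all 23 counts were assigned to NM_001042542, and in sample 2 NM_009651 took 28.7 of 29 counts. Cadmium testes sample 1 had 13.8 and 9.23 counts on them, and sample 2 had all 39 on NM_001042542. The gene sum of Akap4 was steadier than either transcript, so no transcript of this gene is compared between groups.

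Odf2 had 4 listed transcripts, of which NM_001177661 (2248 bases) and NM_013615 (2375 bases) held most counts in every sample. The share of NM_001177661 was 56.8% and 76.0% in control testes, 32.1% and 56.4% in cadmium testes, 61.6%, 100% and 91.4% in control sperm pools 2 to 4, 8.33% in pool 1, and 40.9% and 46.3% in cadmium sperm. Across the 4 control sperm pools this share ran from 8.33% to 100%, which spans the values of all other samples. Cabyr had 5 listed transcripts of 818 to 2125 bases. The shortest, NM_001042419, took 16.3 of 29 counts in control testes sample 2 and 23.7 of 43 in cadmium testes sample 2, and 0 in every other sample. Since FPKM divides by length, Cabyr stood at 3.60 and 12.0 FPKM in control testes for 19 and 29 counts. In sperm each sample that listed it had its Cabyr counts on 1 transcript, NM_001042420 in control pool 2 and cadmium sample 1, NM_181731 in control pool 4 and NM_027687 in cadmium sample 2.

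**Figure D4:**
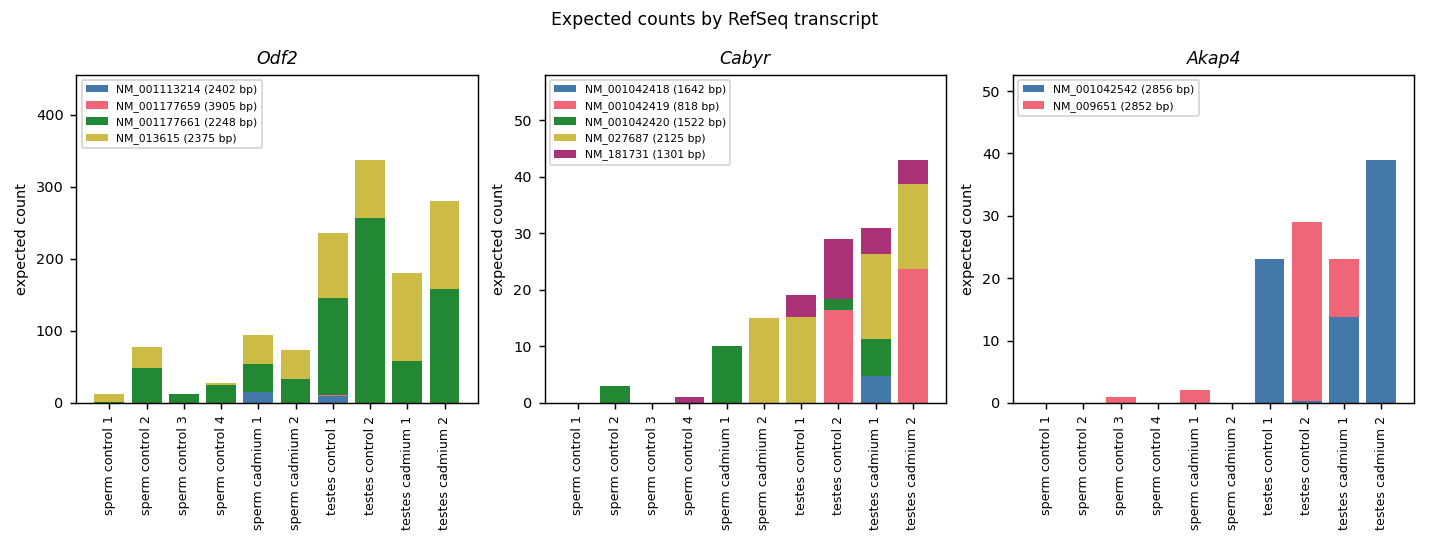
Expected counts of Odf2, Cabyr and Akap4 in each sample, stacked by RefSeq transcript, with the transcript length in base pairs in the key. The colour that fills the Akap4 bar changed between testes samples (23 of 23 counts on NM_001042542 in control sample 1, 0.34 of 29 in control sample 2).

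Partners of these proteins were followed in 3 lists. Of 10 fibrous sheath partners, 5 were tested between control sperm and control testes, and Pgk2 and Eno4, glycolytic enzymes of the principal piece, were called lower in sperm (edgeR adjusted p = 0.0477 for both), beside the 20% of RefSeq mRNA genes called lower. Pgk2 had 11 and 14 counts in testes and 0 in all 4 control sperm pools, 2.94-fold lower at the floor (interval from 2.22-fold). Eno4 had 60 and 52 counts in testes against 2 in pool 2 alone. Ldhc and Txndc2 had an unadjusted p under 0.05 but were not called (edgeR adjusted p = 0.0507 and 0.118). Of 9 outer dense fibre partners, 5 were tested and none was called by edgeR, with Odf3 and Odf4 at an unadjusted p under 0.05 and Odf4 nearest at adjusted p = 0.0503. Of 6 protein kinase A subunits, 5 were tested and Prkar1a, the regulatory subunit RI alpha, was called lower (edgeR adjusted p = 0.0477), which is also a share of 20%. Prkar1a had 10 and 12 counts in testes and 0 in control sperm, 2.59-fold lower at the floor (interval from 1.93-fold). Pgk2, Eno4 and Prkar1a passed the filter through their testes samples, so they could only be called lower. With no filter, edgeR called none of the 3 (adjusted p = 0.145 for Pgk2, 0.136 for Eno4 and 0.152 for Prkar1a).

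Between cadmium sperm and cadmium testes, 3 of 5 tested sheath partners were called lower, beside 18.9% of RefSeq mRNA genes. Ldhc, the germ cell lactate dehydrogenase, had a log2 fold change of -4.38 (SE 0.842), Eno4 of -4.62 (SE 0.924) and Txndc2, a thioredoxin of the sheath, of -3.27 (SE 0.795), with edgeR adjusted p = 0.000353 for the last. These 3 genes passed the filter through their testes samples. Pgk2 had an unadjusted p under 0.05 but was not called (edgeR adjusted p = 0.0659). None of 3 tested outer dense fibre partners was called by edgeR, and 1, Spag4, had an unadjusted p under 0.05. Prkar2b, the regulatory subunit RII beta, was the only gene of the 3 lists called higher in sperm, with 17 and 11 counts in cadmium sperm and 3 and 7 in cadmium testes (log2 fold change 2.83, SE 0.839, edgeR adjusted p = 0.00432), beside 20.7% of RefSeq mRNA genes called higher. Prkar2b was at 4.40 and 2.63 FPKM in cadmium sperm and 5.67, 2.26, 0 and 1.77 FPKM in control sperm pools 1 to 4. In cadmium testes it was at 0.32 and 0.78 FPKM, so it passed the filter through its sperm samples alone. No gene of the 3 lists was called by edgeR for cadmium within a tissue or for the difference between tissues, where 1, Prkar1a, had an unadjusted p under 0.05.

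Among 666 RefSeq genes with a mean of at least 10 FPKM, those whose log2(FPKM + 1) over the 10 samples was most like the mean of the 10 genes were Primpol (Pearson r = 0.987), Map3k12 (0.986), Mina (0.986), Zfp385c (0.984) and Necab1 (0.982). Each was higher in all 4 testes samples than in all 6 sperm samples, with Primpol at 39.2 to 70.9 FPKM in testes and 0 to 2.11 in sperm, and Zfp385c at 276 to 430.3 and 31.3 to 54.2. The points share libraries and depth.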

How the data were processed

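RNA depleted of ribosomal RNA was sequenced strand-specifically with paired 100-base reads. The authors cleaned the reads, aligned them with SOAPaligner/SOAP2 per the paper, and deposited for each sample a table of the transcripts above 0 (length, expected count, FPKM). The submitters' processing notes name HISAT and mm10, and the tool that gave the expected counts is not given in the sources used here. The expected counts deposited by the authors carry no normalization, and in a sample 29.3% to 40.3% were fractional. In the deposited FPKM these are divided by transcript length and library size, with sample totals from 691375 to 733566. RefSeq mRNA held 9.15% to 13.6% of the counts of a sample.

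Groups came from the sample titles. The 10 genes, the partner lists and the tests were chosen with earlier results of these data known. Every listed transcript with a RefSeq mRNA identifier was summed by gene, an unlisted gene was set to 0, and the sums were rounded to whole counts. Genes that reached 1 FPKM in 2 or more samples of a comparison entered the quasi-likelihood test (edgeR 4.0.16, R 4.3.3, TMM scaling), with Benjamini-Hochberg adjustment over all of them. Calls needed an adjusted p below 0.05 and over 2-fold difference. Each SE was worked back from the F statistic of its fold change. Alternatives were library size scaling, DESeq2 1.42.0, no filter, limma 3.58.1 on log2(FPKM + 1) or log2(FPKM + 0.1), RefSeq mRNA alone, counts thinned in 1 draw, all 4 control sperm pools, a replicate block, 1 fit over the 4 groups, and leaving out each sample. The script was tested on simulated data.

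Pooled ratios are of summed counts over summed totals, with exact conditional 95% intervals (Clopper-Pearson), and 3 counts over the group served as the floor where a group had 0. Intervals cover counting error only, and a fold at the floor leaves out the counting error of the other group. The chi-square per degree of freedom between samples of a group was at least 9.57, so no sample was a copy of another. The genes named are the 10 chosen, every partner gene called, and the 5 RefSeq genes most like the mean of the 10. Others were named after their values were seen: Odf3, Odf4, Spag4 and Prkar1a where only their unadjusted p is given. So were Ldhc, Txndc2 and Pgk2 in the comparisons where they were not called. Cell type markers were used as lists. Positions and promoters are from RefSeq's GRCm38 tables, and the software was Python 3.11.15 with scipy 1.17.1, pandas 2.3.3, numpy 2.4.6 and, for figures, matplotlib 3.10.9.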

Additional observations from a re-analysis of the deposited data

Results flagged for a closer look

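In 3 genes the highest of the 4 control sperm pools stood apart from the other 3, which were at 0. Akap3 was at 0.3 FPKM in pool 2, Akap4 at 0.97 FPKM in pool 3 and Fsip1 at 0.58 FPKM in pool 2. Each of these values rests on 1 count, and each was singled out because its gap to the nearest other pool was the whole range of the group, which is above Dixon's 95% limit for 4 samples. That limit marks about 1 in 20 groups by chance, but this rate does not hold here, since any gene listed in 1 pool alone is marked. Gapdhs, Ldhc, Eno4, Txndc2, Odf2l, Oaz3 and Prkaca, with 2 to 5 counts, were also listed in 1 control sperm pool alone.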

How the results depend on the processing

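In sperm, where a count of 3 stands for 2.39 to 8.19 CPM, depth limits all of the 10 genes but Odf2 (28.3 to 81.4 CPM) and, under cadmium, Cabyr (8.65 and 12.0 CPM). Between control sperm and control testes no fold change of the 7 tested genes reversed in 105 alternative values. The call was lost in 24, not counting Odf1 and Ropn1l with DESeq2 (no adjusted p), and gained in 7. Genes called there went from 5319 to 3315 with DESeq2, 1344 with no filter, 1214 with RefSeq mRNA alone (fewer genes tested), 1317 after thinning and 1566 with the replicate block, which here also adds pool 1 (5577 with pool 1 and no block), and to 711 to 4445 when a sample was left out. Of the 10 genes, 3 were called, against 1 with DESeq2, 5 with limma on log2(FPKM + 1), 4 with limma on log2(FPKM + 0.1), all 4 pools or 1 fit over the 4 groups, 0 with no filter, after thinning or with the block, and 0 to 2 with a sample left out. Between cadmium sperm and cadmium testes 8154 genes were called, 5089 with DESeq2, 2290 with RefSeq mRNA alone, 3680 after thinning, 4288 in 1 fit over the 4 groups and 4184 to 6550 with a sample left out. Of the 10 genes, 4 were called, 1 with DESeq2 or thinning, 2 with limma on log2(FPKM + 0.1) and 0 to 3 with a sample left out. For cadmium in testes 6 genes were called, 0 with library size, either limma fit, RefSeq mRNA alone or thinning, 88 with no filter, 89 with the block and 25 to 54 with a sample left out, and for cadmium in sperm 17, 11 with DESeq2, 0 with limma on log2(FPKM + 1), 1168 on log2(FPKM + 0.1), 3 with RefSeq mRNA alone, 28 in 1 fit over the 4 groups and 3 to 40 with a sample left out. For the difference between tissues 13 genes were called (3 higher, 10 lower), 3 with library size (1 higher, 2 lower), 0 with DESeq2, either limma fit or RefSeq mRNA alone, 5 after thinning, 25 with the block and pool 1 added (12 with pool 1 alone) and 2 to 26 with a sample left out. None of the 10 genes was called for cadmium or for the difference under any setting. The causes were not tested.

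Library size in place of TMM moved the median log2 fold change of all genes from -1.24 to -1.13 between control sperm and testes and from -0.30 to -0.56 in the cadmium arm. Signs turned in 12 of 104 values for cadmium in testes, where Akap3 stood at 0.0005 with no filter and 0.0115 after thinning, and Akap4 at -0.0018 after thinning. With a sample left out there, Akap3 ranged from -0.93 to 0.80, Akap4 from -0.39 to 0.80, Odf2 from -0.91 to 0.35, Ropn1l from -0.11 to 0.49 and Spa17 from -1.96 to 1.12. Between cadmium sperm and testes Odf2 stood at 0.38 after thinning, 0.0035 with the block and -0.64 to 0.59 with a sample left out, and Cabyr at 0.33 after thinning and -0.66 to 0.41. For the difference between tissues Odf2 ranged from -0.15, without control testes sample 2, to 1.55.

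The labels do not say that equal replicate numbers mark shared mice. Deviations of same-numbered samples from their group means correlated at r = 0.485 between cadmium and control testes, 0.0933 between cadmium sperm and cadmium testes and -0.0784 to -0.0056 in the other pairs. In testes, same-numbered samples of the arms were thus alike, which the main test of cadmium there does not use. The block with the replicate number was run as an alternative, and for cadmium in testes it called 89 genes against 6, with 0 of the 10 genes in either.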
